A study of Mus musculus with 8 samples.

Results

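Glucose and sugar transporters were examined as a set of 9 genes, out of 20377 gene symbols measured, in mouse bile duct cells. The set was listed by name and not by a cut on measured values, though earlier results of these data were known when it was chosen. Its members were Slc5a1, Slc5a9, Slc5a11, Slc2a1, Slc2a2, Slc2a4, Slc2a5, Slc2a8 and Slc2a9. RNA sequencing compared 2 populations, ST14high and ST14low, with 4 libraries each (replicates 1 to 4), sorted from the livers of wild type C57BL/6 mice. Both populations were liver cells other than hepatocytes that bound the duct antibody MIC1-1C3, lacked surface CD26 and were not blood cells. They differed in surface ST14, also called matriptase, a serine protease fixed to epithelial cell membranes. The sources used here do not give age, sex or the number of animals, so p-values measure the spread between libraries, which may be technical.

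Sugars cross cell membranes mainly through 2 families of carrier. Sugar carriers of the SLC5 family draw sugar in together with sodium, driven by the sodium gradient that the sodium pump maintains, whereas members of the SLC2 family (the GLUT proteins) let sugar pass down its own gradient. In rat bile ducts, cholangiocytes take glucose back from bile through the sodium-coupled carrier SGLT1 on the side facing the lumen and release it through GLUT1 on the opposite side. The question put to these data was at what level each carrier was transcribed in mouse duct cells and whether the ST14high and ST14low populations differed in any of them.

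The regions before the start sites of the 3 carriers at the highest level are shown to put sequence beside the genes that hold most of the set's transcripts. They are 250 bases each, on the gene strand, 5′ to 3′, from RefSeq in build GRCm38.p6. Capitals mark the GC box GGGCGG read on either strand.

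Slc5a1, chr5:33103969-33104218, plus strand: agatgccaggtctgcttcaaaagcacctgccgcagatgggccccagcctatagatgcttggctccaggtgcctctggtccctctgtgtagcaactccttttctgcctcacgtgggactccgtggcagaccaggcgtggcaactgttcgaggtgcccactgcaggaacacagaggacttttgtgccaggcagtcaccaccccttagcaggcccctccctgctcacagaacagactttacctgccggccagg
Slc2a2, chr3:28697653-28697902, plus strand: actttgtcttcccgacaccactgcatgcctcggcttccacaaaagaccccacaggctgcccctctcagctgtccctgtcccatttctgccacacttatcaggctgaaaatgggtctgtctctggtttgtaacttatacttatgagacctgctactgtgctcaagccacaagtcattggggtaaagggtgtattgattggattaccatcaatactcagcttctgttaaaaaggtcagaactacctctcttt
Slc2a1, chr4:119108495-119108744, plus strand: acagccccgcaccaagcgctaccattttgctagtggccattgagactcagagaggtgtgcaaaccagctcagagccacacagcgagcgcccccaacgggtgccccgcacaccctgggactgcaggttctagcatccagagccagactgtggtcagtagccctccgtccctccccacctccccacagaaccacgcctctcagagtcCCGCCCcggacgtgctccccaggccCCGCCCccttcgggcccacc

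G and C made up 60.0% of the Slc5a1 region, 47.2% of the Slc2a2 region and 66.4% of the Slc2a1 region, where the median over 32851 mouse promoters of the same length was 52.4%. The Slc2a1 region held 2 GC boxes and the other 2 regions held 0, and 32.7% of all promoters held at least 1. None of the 3 regions held TATAAA on the gene strand (7.59% of all promoters did). Such letters describe the window shown and say nothing of binding.

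Duct markers were read first, and 11 of 12 exceeded 1 CPM in all 8 libraries. That cut does not set duct cells apart, since all 15 hepatocyte markers passed it too. Epcam, an epithelial adhesion molecule, lay between 525 and 613 CPM (counts scaled to a common library size) in ST14high and between 509.5 and 632 CPM in ST14low, and Sox9, a duct transcription factor, between 405 and 490.0 CPM in ST14high and between 403 and 527 CPM in ST14low. St14 itself was at 286 to 354 CPM in ST14high and at 278 to 391 CPM in ST14low, so the transcript did not separate the populations sorted on the protein (log2 fold change -0.11, edgeR adjusted p = 0.809). Library totals ran from 17418200 to 42769980 counts in ST14high and from 6398307 to 31011666 counts in ST14low. RNA of other cell types was present: all 15 hepatocyte markers exceeded 1 CPM in all 8 libraries, and 15 pancreatic acinar markers summed to 11620 CPM in ST14high replicate 1 and 1712 CPM in ST14high replicate 2, against at most 12.6 CPM in the other ST14high libraries and 5.71 to 129 CPM in ST14low. Markers of stellate cells, fibroblasts and mesothelium (14 genes) summed to 599 to 3523 CPM in ST14high and 170.5 to 371 CPM in ST14low, highest in ST14high replicate 1. Endothelium markers (9 genes) summed to 19.0 to 1252 CPM in ST14high and 238 to 1045 CPM in ST14low. Those of macrophages and dendritic cells summed to 312 to 429.5 CPM in ST14high and 432 to 1122 CPM in ST14low, without overlap. In a sorted population, fewer cells of a type and less RNA per cell cannot be told apart. For carriers with enough counts to be tested, log2 fold changes are given with and without ST14high replicate 1.

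**Figure D1:**
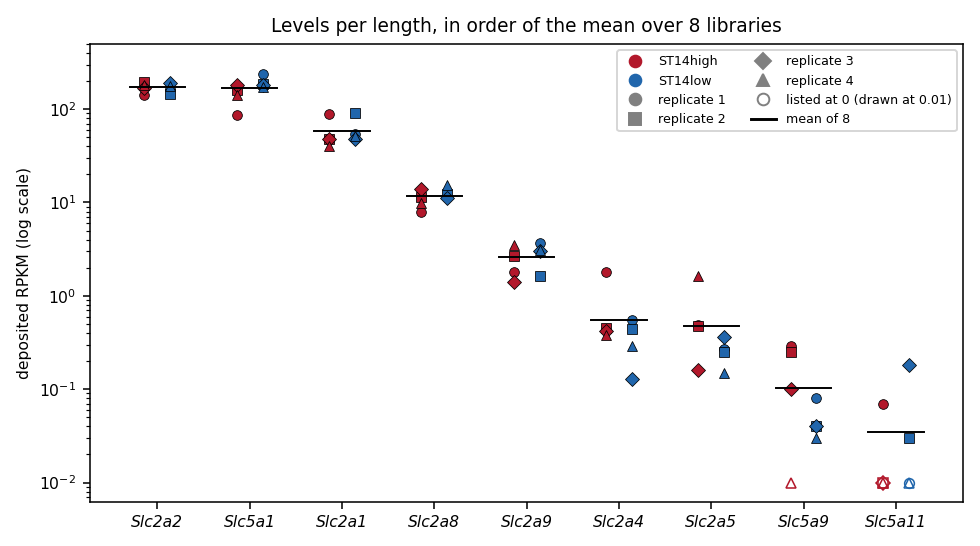
Deposited RPKM (reads scaled for transcript length and library depth, log axis) of the 9 carriers, ordered by the mean over 8 libraries (black line); red points are ST14high and blue points ST14low libraries, shaped by replicate, and open symbols are values listed at 0, drawn at 0.01. Slc2a2 and Slc5a1 sit together at the top with means of 170 and 168 RPKM, Slc2a1 follows at 58.9 RPKM, and the last 4 genes average below 1 RPKM.

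On the length-scaled RPKM that the authors deposited, 3 carriers made up most of the set. Slc2a2 averaged 170 ± 19.6 RPKM over the 8 libraries (SD), Slc5a1 168 ± 43.4 RPKM and Slc2a1 58.9 ± 19.9 RPKM, which is 41.3%, 40.7% and 14.2% of the summed RPKM of the 9 genes. Next came Slc2a8 at 11.7 ± 2.35 RPKM and Slc2a9 at 2.61 ± 0.889 RPKM. Slc2a4 averaged 0.556 RPKM, Slc2a5 0.472 RPKM, Slc5a9 0.104 RPKM and Slc5a11 0.035 RPKM. Slc2a1 and Slc2a8, and Slc2a8 and Slc2a9, were the neighbouring genes whose ranges did not overlap. Slc2a2 exceeded Slc5a1 in 5 of 8 libraries, and Slc5a1 exceeded Slc2a1 in 7 of 8, all but ST14high replicate 1, where Slc5a1 was at 87.5 RPKM and Slc2a1 at 89.2 RPKM. The order of the first 2 genes depends on the transcript length used. The deposited RPKM imply a Slc2a2 transcript 0.641 times as long as that of Slc5a1, whereas the GENCODE M21 transcripts linked to the same RefSeq entries are 5569 and 4104 bases long, a ratio of 1.36. With GENCODE lengths, Slc5a1 averaged 138 CPM per kilobase, Slc2a2 66.2 and Slc2a1 40.2. The counts were taken over the authors' own transcripts, so GENCODE lengths may include bases over which no reads were counted. These values per kilobase are therefore a rough scale and do not settle the order.

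**Figure D2:**
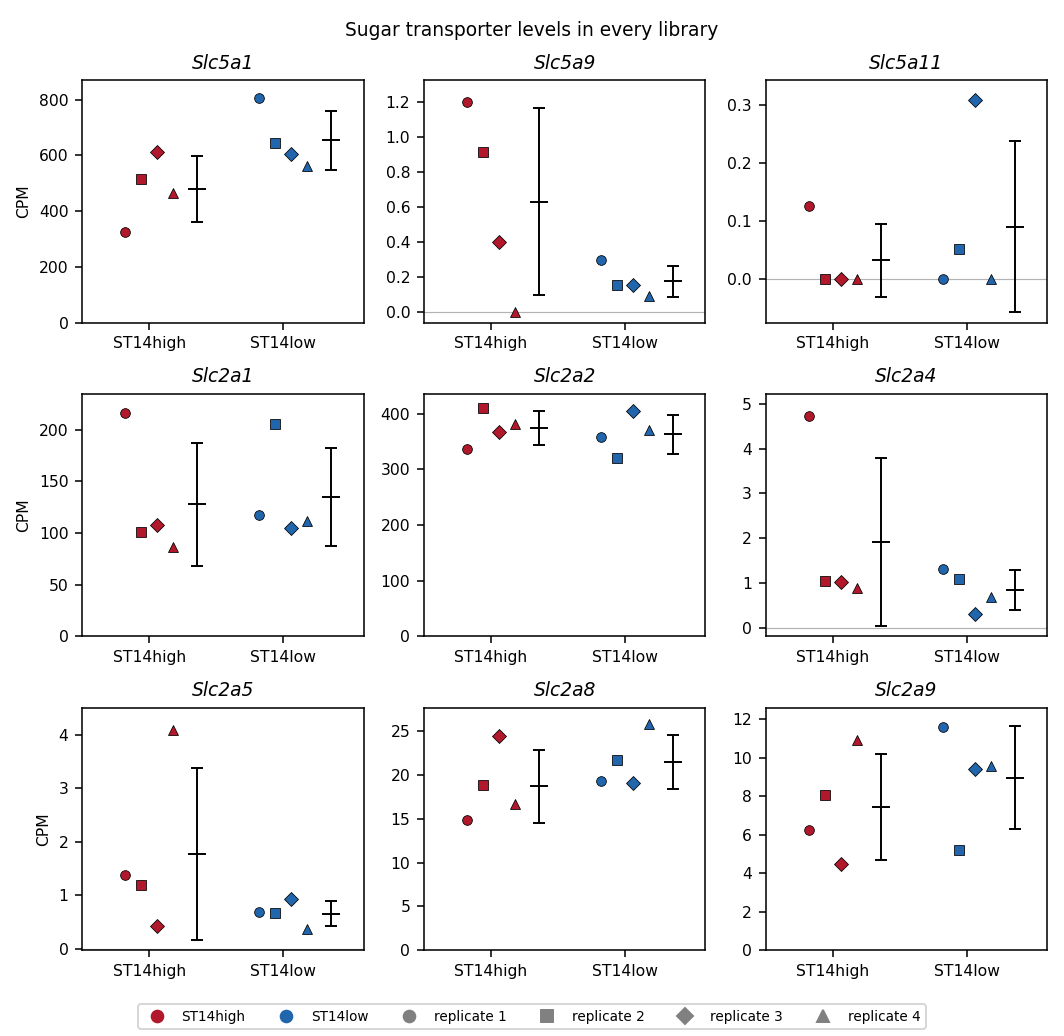
CPM of each carrier in every library (one panel per gene, linear axes); points are libraries, shaped by replicate, and the black bar beside each population is its mean with SD (n = 4). In every panel the ST14high (red) and ST14low (blue) points overlap in range; Slc2a1 has 1 high library in each population, at 216 CPM among ST14high and 206 CPM among ST14low libraries.

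None of the 9 carriers differed between the populations past the test's threshold. Of the 7 that passed the filter on low counts, edgeR's quasi-likelihood test called 0 at an adjusted p of 0.05, as it did across all 13749 genes tested (0.0%). At an unadjusted p under 0.05 there were 0 of 7, where 9.56% of all genes lay under it, 6.89% higher and 2.68% lower in ST14high. Slc5a1 lay closest, at an unadjusted p of 0.0537 in edgeR. Some alternatives put it under 0.05, among them DESeq2 (unadjusted p = 0.0249) and edgeR without ST14high replicate 3 (unadjusted p = 0.0197). DESeq2 called 0 of the 7, where it called 1.72% of all genes, and limma's voom called 0 of the 7 and 0.0% of all genes. The ST14high and ST14low values overlapped in all 9 carriers, the 7 tested ones among them. Of all tested genes, 6.42% had populations that did not overlap. A set of 7 is too small to set 0 apart from such shares. The median log2 fold change of the 7 was -0.08 (ST14high over ST14low), against 0.00 over all tested genes, with 3 above and 4 below 0.

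Slc5a1 encodes SGLT1, the sodium-coupled carrier of glucose and galactose (1 transcript, chromosome 5, 33446867 to 33505348, plus strand, mouse build mm9, as are the coordinates of all carriers below). It had 325, 517, 612 and 464 CPM in ST14high replicates 1 to 4, against 804, 645, 604 and 561 CPM in ST14low replicates 1 to 4. The lowest 3 values of the 8 were ST14high libraries, and ST14high replicate 3 exceeded ST14low replicates 3 and 4. It averaged 479 ± 120 CPM in ST14high, against 654 ± 106 CPM in ST14low (SD, n = 4 each), on 113022 counts over all libraries. Its log2 fold change was -0.45 (SE 0.20, 95% interval -0.90 to 0.01), with an adjusted p of 0.518 in edgeR and an exact two-sided permutation p of 0.0857, where the smallest that 4 against 4 libraries can give is 0.0286. The interval allows a level in ST14high as low as 0.534 times that in ST14low, and as high as 1.01 times. Without ST14high replicate 1 the log2 fold change was -0.30 (adjusted p = 0.595 in edgeR).

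The highest Epcam library was 1.24 times the lowest, against 2.48 times for Slc5a1. Per CPM of Epcam, Slc5a1 stood at 0.618, 0.946, 0.998 and 0.775 in ST14high replicates 1 to 4, against 1.31, 1.13, 1.19 and 0.889 in ST14low. Relative to Slc2a2, on the RPKM scale, Slc5a1 stood at 0.618, 0.808, 1.07 and 0.779 in ST14high, against 1.44, 1.29, 0.956 and 0.972 in ST14low. Both ratios overlapped between the populations, at means of 0.834 ± 0.173 in ST14high and 1.13 ± 0.176 in ST14low per Epcam, and 0.818 ± 0.186 in ST14high and 1.17 ± 0.241 in ST14low per Slc2a2. These ratios were chosen after the values were seen and carry no test.

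The other SLC5 members had few counts, 73 for Slc5a9 and 5 for Slc5a11 over all libraries. Slc5a9 (SGLT4, a carrier of mannose and related sugars; chromosome 4, 111547981 to 111575401, minus strand) had 19, 23, 17 and 0 counts in ST14high replicates 1 to 4, against 7, 3, 1 and 3 counts in ST14low. That is 1.20, 0.915, 0.401 and 0 CPM in ST14high, against 0.298, 0.154, 0.154 and 0.0938 CPM in ST14low. ST14high replicates 1 to 3 lay above every ST14low library and ST14high replicate 4 lay below them all. It did not pass the filter on low counts, and its exact permutation p was 0.371. Pooled over libraries, its 59 counts in ST14high came to 0.504 CPM (3 counts would be 0.0256 CPM) and its 14 counts in ST14low to 0.172 CPM. Slc5a11 (a sodium-coupled carrier of inositol; chromosome 7, 130358379 to 130416765, plus strand) had 2 counts in ST14high and 3 in ST14low. No level above 3 pooled counts, which is 0.0256 CPM over ST14high and 0.0368 CPM over ST14low, was measured for it in either population.

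Slc2a2 encodes GLUT2, the low-affinity glucose carrier of hepatocytes, of pancreatic beta cells and of the blood-facing side of kidney and gut epithelium (chromosome 3, 28596824 to 28627282, plus strand). It varied least among the 7 tested carriers. It had 337, 410, 367 and 382 CPM in ST14high replicates 1 to 4, against 357, 320, 405 and 370 CPM in ST14low replicates 1 to 4. The highest library was 1.28 times the lowest, and the populations overlapped over nearly their whole range. It averaged 374 ± 30.3 CPM in ST14high, against 363 ± 35.2 CPM in ST14low on 73139 counts. Its log2 fold change was 0.04 (SE 0.13, 95% interval -0.24 to 0.33; adjusted p = 0.931 in edgeR, exact permutation p = 0.657), so that the interval runs from 0.847 to 1.25 times the ST14low level. Without ST14high replicate 1 the log2 fold change was 0.09.

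Since hepatocytes also transcribe Slc2a2, its values were set beside those of hepatocyte markers, and their part in its level was not tested. The 15 markers summed to 5263, 9101, 11670 and 13010 CPM in ST14high replicates 1 to 4, against 10540, 14920, 8720 and 9842 CPM in ST14low. Alb alone made up most of each sum, from 3930 CPM in ST14high replicate 1 to 11559 CPM in ST14low replicate 2. Of the 15 markers, 0 had a higher mean in ST14high. The library with the lowest summed CPM of hepatocyte markers, ST14high replicate 1, and the one with the highest, ST14low replicate 2, had the 2 lowest Slc2a2 values, 337 and 320 CPM. Per 1000 CPM of these markers, Slc2a2 had 64.0, 45.0, 31.5 and 29.3 CPM in ST14high, against 33.9, 21.4, 46.4 and 37.6 CPM in ST14low. The marker sum spanned 2.84-fold between libraries. Islet cells are another type that uses GLUT2, and their part was not tested either. The 8 islet markers summed to 15.9, 59.2, 0.59 and 62.1 CPM in ST14high replicates 1 to 4, against 0 to 0.219 CPM in ST14low, without overlap. The insulin gene Ins2 was at 32.4 CPM in ST14high replicate 4 and 11.5 CPM in ST14high replicate 2, the glucagon gene Gcg at 28.3 CPM in ST14high replicate 2 and the somatostatin gene Sst at 11.2 CPM in ST14high replicate 1. Slc2a2 was at 367 CPM in ST14high replicate 3, where Ins1 and Ins2 had 0 counts.

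**Figure D3:**
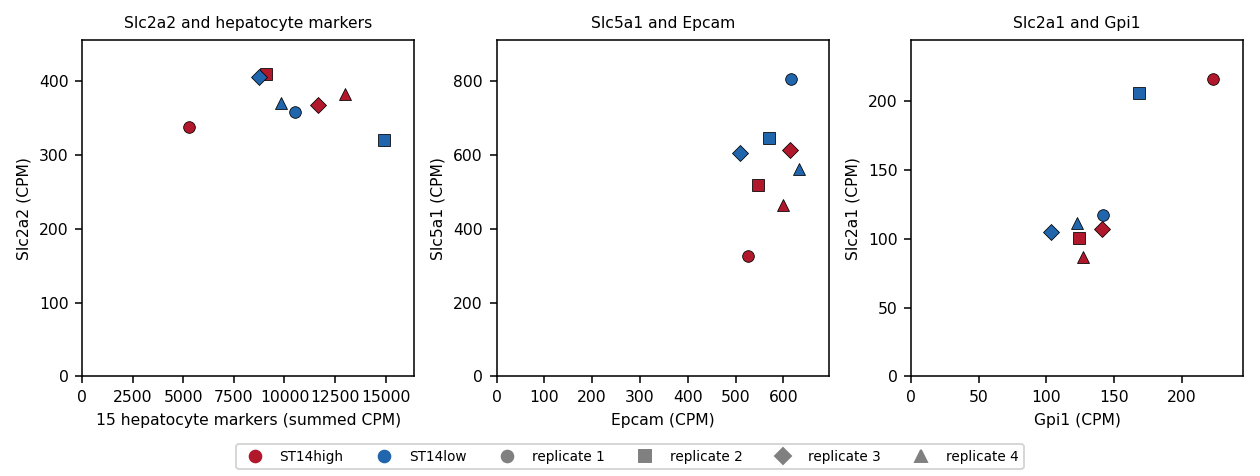
CPM of Slc2a2 against the summed CPM of 15 hepatocyte markers (left), of Slc5a1 against Epcam (middle) and of Slc2a1 against Gpi1 (right), with 1 point per library, red for ST14high and blue for ST14low, shaped by replicate; all axes are linear and start at 0. Slc2a2 stays between 320 and 410 CPM while the hepatocyte sum runs from 5263 to 14920 CPM, and the 2 libraries highest in Slc2a1 are also the 2 highest in Gpi1.

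Slc2a1 encodes GLUT1, the glucose carrier of most dividing and barrier-forming cells (chromosome 4, 118781349 to 118809934, plus strand). It had 216, 101, 107 and 86.7 CPM in ST14high replicates 1 to 4, against 117, 206, 105 and 111 CPM in ST14low replicates 1 to 4. ST14high replicate 1 and ST14low replicate 2 stood apart from their own populations, and the other 6 libraries lay within 86.7 to 117 CPM. The means were 128 ± 59.5 CPM in ST14high, against 135 ± 47.5 CPM in ST14low, on 24423 counts. Its log2 fold change was -0.08 (SE 0.32, 95% interval -0.79 to 0.63; adjusted p = 0.951 in edgeR, exact permutation p = 0.6). Without ST14high replicate 1 it was -0.46, and it lay above 0 without ST14low replicate 2 (0.19), ST14high replicate 2 (0.016) or ST14high replicate 4 (0.064). Gpi1, the enzyme that turns glucose 6-phosphate into fructose 6-phosphate, was also highest in those 2 libraries, at 223 CPM in ST14high replicate 1 and 169 CPM in ST14low replicate 2, against 124 to 141 CPM in the other ST14high and 104 to 142 CPM in the other ST14low libraries. Hk1, a hexokinase that traps glucose in the cell, was at 120 CPM in ST14high replicate 1 and 87.6 CPM in ST14low replicate 2, against 70.3 to 70.9 CPM in the other ST14high and 59.4 to 76.3 CPM in the other ST14low libraries. Acinar markers, at 11620 CPM in ST14high replicate 1, summed to 10.3 CPM in ST14low replicate 2. Among duct markers, Krt19 (1522 and 891 CPM) and Cldn4 (603 and 478 CPM) were also highest in those 2 libraries, whereas Sox9 was lowest (405 and 403 CPM). Endothelium markers summed to 1252 and 719 CPM there, and to 1045 CPM in ST14low replicate 3. These markers were picked after their values were seen, and what links any of these genes to Slc2a1 was not tested.

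Over the 8 libraries, the genes whose log2 CPM profile, centred on its own mean, lay nearest to that of Slc2a1 were Cldn23, a claudin, Tubb2a, a tubulin, and Fam110a, at root mean square differences of 0.12, 0.14 and 0.14. For Slc5a1 they were Psd4, 1200011M11Rik and Sall2, at 0.11, 0.12 and 0.12. Slc5a1 and Slc2a1 were added to this search after their values were seen. The search covered 13748 genes and describes likeness over these libraries only.

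**Figure D4:**
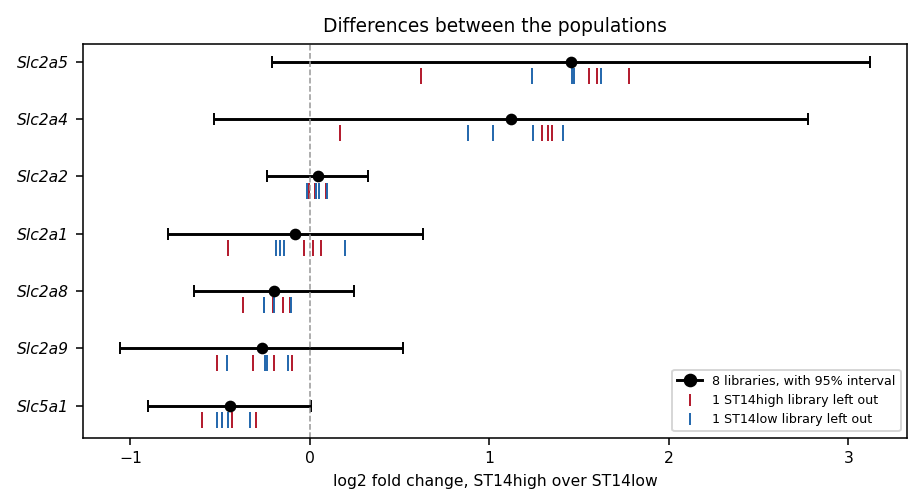
Log2 fold change of the 7 tested carriers, ST14high over ST14low; black points are the fit on 8 libraries with 95% intervals and the ticks beneath leave out 1 library each, red for an ST14high and blue for an ST14low library. Every interval holds 0, and the interval of Slc5a1 ends at 0.01.

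Slc2a8 and Slc2a9 were expressed at intermediate levels. Slc2a8 encodes GLUT8, a carrier held mainly on internal membranes (chromosome 2, 32828508 to 32837576, minus strand). It had 14.9, 18.9, 24.4 and 16.6 CPM in ST14high replicates 1 to 4, against 19.3, 21.8, 19.1 and 25.8 CPM in ST14low replicates 1 to 4. The lowest 3 values were again ST14high libraries, with ST14high replicate 3 above 3 of the 4 ST14low libraries. Its log2 fold change was -0.20 (SE 0.20, 95% interval -0.65 to 0.24; adjusted p = 0.754 in edgeR, exact permutation p = 0.229), and -0.11 without ST14high replicate 1. Slc2a9 encodes GLUT9, which carries urate (chromosome 5, minus strand; 4 transcripts, of which that at 38740511 to 38871545 with 1599 counts was used and the others held 1475 to 1569). It had 6.25, 8.08, 4.46 and 10.9 CPM in ST14high, against 11.6, 5.23, 9.41 and 9.57 CPM in ST14low. High and low libraries occurred in both populations, and its log2 fold change was -0.27 (SE 0.35, 95% interval -1.06 to 0.52; adjusted p = 0.813 in edgeR, exact permutation p = 0.429), and -0.20 without ST14high replicate 1.

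Slc2a4 and Slc2a5 had low counts, and in each 1 ST14high library lay far above the others. Slc2a4 encodes GLUT4, the insulin-responsive carrier of fat and muscle (chromosome 11, 69755787 to 69761692, minus strand). It had 4.74, 1.03, 1.02 and 0.890 CPM in ST14high replicates 1 to 4, against 1.32, 1.08, 0.309 and 0.688 CPM in ST14low replicates 1 to 4. ST14high replicate 1 stood above all others, with 75 of the gene's 250 counts. The log2 fold change of 1.12 (SE 0.74, adjusted p = 0.644 in edgeR, exact permutation p = 0.343) was 0.17 without that library. Of 10 fat and muscle markers, 5 had 0 counts in all ST14high libraries, the fat cell genes Adipoq and Plin1 among them. In ST14high replicate 1 the fat cell gene Cidec was at 1.45 CPM, Retn at 0.316 CPM and the muscle actin gene Acta1 at 2.97 CPM. The 10 markers summed to 5.05 CPM there, against 1.07 to 4.90 CPM in the other ST14high libraries and 0.256 to 0.938 CPM in ST14low. Outside these 10, the smooth muscle gene Myh11 was at 379 CPM in that library. It was at 14.5 to 139 CPM in the other ST14high libraries and 0.772 to 20.9 CPM in ST14low. Acta2, also of smooth muscle, was at 241 CPM, against 13.0 to 141 CPM in the other ST14high libraries and 1.23 to 17.0 CPM in ST14low. Both were picked after their values were seen. The part of fat, muscle, smooth muscle or acinar cells in the Slc2a4 values was not tested. By root mean square difference its nearest genes were Stc1, Car2 (a carbonic anhydrase) and Acot7, at 0.33, 0.34 and 0.35.

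Slc2a5 encodes GLUT5, the fructose carrier (chromosome 4, 149493452 to 149518277, plus strand). It had 1.39, 1.19, 0.425 and 4.10 CPM in ST14high replicates 1 to 4, against 0.682, 0.666, 0.926 and 0.375 CPM in ST14low replicates 1 to 4. ST14high replicate 4 held 138 of its 255 counts, ST14high replicates 1 and 2 also lay above every ST14low library, and ST14high replicate 3 lay among the ST14low libraries. The log2 fold change was 1.46 (SE 0.74, 95% interval -0.21 to 3.12; adjusted p = 0.565 in edgeR, exact permutation p = 0.229), 0.62 without ST14high replicate 4 and 1.56 without ST14high replicate 1. Its nearest genes were BC021785, BC048546 and Gng13, at root mean square differences of 0.38, 0.40 and 0.44. Per length, both Slc2a4 and Slc2a5 averaged under 1 RPKM in each population.

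Further genes of sugar transport and handling were read from 5 lists of 60 genes, of which 52 were tested. EdgeR called 0 and DESeq2 called 0 of the 51 to which it gave an adjusted p, and 2 of the 52 had an unadjusted p under 0.05 in edgeR. Over all genes tested, edgeR called 0.0%, DESeq2 called 1.72%, and 9.56% had an unadjusted p under 0.05 in edgeR. Of 12 other sugar and polyol carriers of the SLC2 and SLC5 families and SWEET, 7 were tested, with a median log2 fold change of 0.25 and 6 of them above 0; the median was 0.04 without ST14high replicate 1. Slc50a1, the mammalian SWEET carrier, had the most counts, at 61.7 ± 18.0 CPM in ST14high, against 52.3 ± 10.0 CPM in ST14low. Slc5a3, the sodium-coupled inositol carrier, was at 45.6 ± 21.6 CPM in ST14high, against 38.2 ± 10.9 CPM in ST14low. Slc5a2 (SGLT2, the main glucose carrier of the kidney tubule) was at 14.3 ± 3.05 CPM in ST14high, against 12.2 ± 0.917 CPM in ST14low, and Slc2a12 at 9.16 ± 3.15 CPM in ST14high, against 10.5 ± 2.91 CPM in ST14low. Slc2a7, Slc5a4a and Slc5a4b had 0 counts in all 8 libraries. Of 5 SLC5 carriers of other substrates 3 were tested, with a median of -0.01, or -0.14 without ST14high replicate 1. Slc5a6, a vitamin carrier, was at 7.38 ± 2.07 CPM in ST14high, against 7.398 ± 1.46 CPM in ST14low, Slc5a8, a carrier of lactate and other monocarboxylates, at 3.30 ± 1.85 CPM in ST14high, against 3.87 ± 1.40 CPM in ST14low, Slc5a5, the iodide carrier, at 0.648 ± 0.538 CPM in ST14high, against 0.502 ± 0.196 CPM in ST14low, and Slc5a7, a choline carrier, had 1 count in all.

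The sodium pump, which supplies the gradient that SLC5 carriers use, was tested in 4 of 5 genes, with a median log2 fold change of 0.16, or 0.03 without ST14high replicate 1. Atp1b1, its beta subunit, was at 1263 ± 95.7 CPM in ST14high, against 1131 ± 195 CPM in ST14low. Fxyd3, a modulator, was at 47.9 ± 4.68 CPM in ST14high, against 42.3 ± 12.04 CPM in ST14low, and Atp1b3 at 45.7 ± 16.9 CPM in ST14high, against 40.9 ± 7.96 CPM in ST14low.

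All 18 enzymes of sugar phosphorylation, glucose release and polyol conversion were tested, with a median log2 fold change of -0.02 (-0.17 without ST14high replicate 1), 8 above and 10 below 0. Gpi1 was at 154 ± 46.6 CPM in ST14high, against 134 ± 27.7 CPM in ST14low, Hk1 at 82.9 ± 24.5 CPM in ST14high, against 73.6 ± 11.7 CPM in ST14low, and G6pc3, a glucose 6-phosphatase, at 60.5 ± 4.84 CPM in ST14high, against 60.9 ± 10.0 CPM in ST14low. The log2 fold changes farthest from 0 were those of the hexokinases Hk3 (-2.50, SE 1.46) and Hk2 (1.47, SE 1.46), named after their values were seen. Hk2 had 15.7 CPM in ST14high replicate 1, against 0 to 0.496 CPM in the other ST14high libraries and 1.03 to 2.31 CPM in ST14low, and leaving that library out gave -2.40. Hk3, which white blood cells express, was at 2.78, 0.239, 0 and 0 CPM in ST14high replicates 1 to 4, against 2.64, 5.28, 7.10 and 1.38 CPM in ST14low; markers of macrophages and dendritic cells summed to 312 to 429.5 CPM in ST14high and 432 to 1122 CPM in ST14low, and their part in Hk3 was not tested. Without ST14high replicate 1 the log2 fold change of Hk3 was -5.79.

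**Figure D5:**
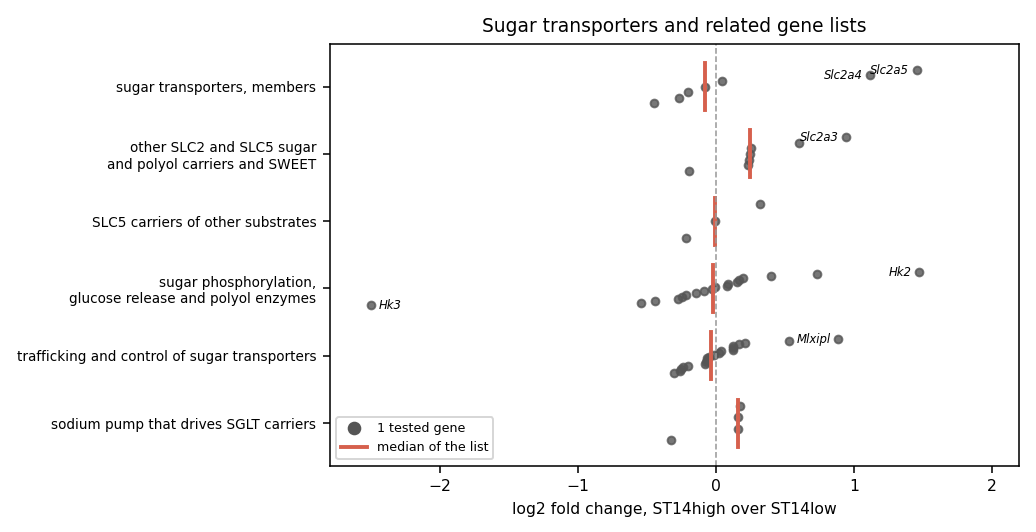
Log2 fold change, ST14high over ST14low, of the tested genes of the 9 carriers (top row) and of 5 related lists; each grey point is 1 gene and the red line is the median of its list. The medians lie between -0.08 and 0.25; the points farthest out, Hk2 at 1.47 and Hk3 at -2.50, did not pass the test.

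All 20 genes of trafficking and control of sugar carriers were tested, with a median log2 fold change of -0.03, 9 above and 11 below 0. Txnip, an arrestin that removes GLUT1 from the surface and whose transcription rises with glucose, had the most counts of this list, at 1650 ± 131 CPM in ST14high, against 1515 ± 243 CPM in ST14low. Sgk1, a kinase that acts on sodium-coupled transport, was at 345 ± 39.3 CPM in ST14high, against 407 ± 96.7 CPM in ST14low, and the insulin receptor gene Insr at 237 ± 24.7 CPM in ST14high, against 251 ± 81.3 CPM in ST14low.

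The following 2 control genes were singled out after their values were seen. Mlxipl encodes ChREBP, a transcription factor activated by glucose. It had 57.8, 57.3, 73.5 and 67.3 CPM in ST14high replicates 1 to 4, against 36.9, 20.3, 50.9 and 31.0 CPM in ST14low, so that every ST14high library exceeded every ST14low library. Its log2 fold change was 0.89 (SE 0.25, unadjusted p = 0.0054), which failed the correction in edgeR (adjusted p = 0.296) and in DESeq2 (adjusted p = 0.0506), and the exact permutation p was 0.0286, the smallest possible. Of all tested genes, 4.09% lay higher in ST14high without overlap and 6.89% were higher with an unadjusted p under 0.05. Without ST14high replicate 1 the log2 fold change was 0.94. Aspscr1 (TUG, a tether of GLUT4 inside the cell) did not overlap between populations either, at 32.6 ± 2.32 CPM in ST14high, against 40.2 ± 9.52 CPM in ST14low, a log2 difference of -0.31 (SE 0.18, edgeR adjusted p = 0.601); 2.33% of all tested genes lay lower in ST14high without overlap.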

How the data were processed

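The 8 deposited files list, per the file headers, a raw count and an RPKM value for each of 26005 RefSeq transcripts with mm9 coordinates. The count values were deposited without normalization. The RPKM values were scaled by the authors by transcript length and library size, and were used only to set levels of different genes side by side. CASAVA 1.8.2, Bowtie 1.0.0 and mm9 are named in the submitters' processing notes, with no role stated. Counting program and strand setting were not given in the sources used here. No other listed gene overlapped the 9 carriers in the deposited table.

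For each symbol the transcript with the most counts was kept. Populations were compared with edgeR 4.0.16 in R 4.3.3 (quasi-likelihood test, TMM, filterByExpr, Benjamini-Hochberg adjustment over all genes tested, threshold 0.05), with population as the only term. SE is the log2 fold change over the root of the F statistic. CPM used TMM-scaled library sizes. Exact two-sided permutation tests used mean log2 CPM (prior count 2) over 70 arrangements, for the 9 carriers and the other list genes (69 in all), unadjusted. DESeq2 1.42.0 and limma 3.58.1 were other tools. The procedure was tested on simulated data. Python 3.11.15 and matplotlib 3.10.9 made tables and plots. Floors of 3 counts cover counting error only.

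The labels do not say that equal replicate numbers pair libraries, and no block was used. Members and lists were chosen with earlier results of these data known. Named were all members, the 4 genes of highest mean CPM in each list with fewer than 2 calls, St14, Epcam and Sox9, and for the 2 members of largest log2 fold change the 3 genes of nearest profile; other genes are stated as named after their values were seen. Some genes that this rule names are not reported here.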

Additional observations from a re-analysis of the deposited data

Results flagged for a closer look

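Each value here lies far from the other 3 libraries of its population, by the gap to its nearest neighbour over the whole range. Of the 78 groups of 4 examined this way, chance would mark about 1 in 20 if values were normally distributed. Groups with few counts, such as those of Slc5a11 and Slc5a7, need not follow that rate. Slc2a1 was marked in both populations, at 215.9 CPM in ST14high (next 107 CPM) and 205.5 CPM in ST14low (next 117 CPM). Slc2a4 was at 4.736 CPM in ST14high (next 1.03 CPM). Slc5a11 was at 0.1263 CPM in ST14high on 2 counts and 0.3086 CPM in ST14low on 2 counts, below the 3 counts of a library's floor. In ST14high, the same library, replicate 1, gave the Slc2a1 and Slc2a4 values.

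Among the other named genes, Hk1 was at 119.7 CPM in ST14high (next 70.9 CPM), Slc5a5 at 1.452 CPM in ST14high and G6pc3 at 67.66 CPM in ST14high, while Insr was low in 1 ST14high library, at 200.1 CPM (next 245 CPM). In ST14low, Atp1b3 was at 52.77 CPM and Slc5a7 at 0.05123 CPM, which is 1 count. Pancreatic acinar markers summed to 11620 CPM in ST14high (next 1712 CPM) and 129.4 CPM in ST14low (next 10.7 CPM). Markers of stellate cells, fibroblasts and mesothelium summed to 3523 CPM in ST14high (next 966 CPM).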

How the results depend on the processing

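No carrier was called under any of the 17 alternatives that tested it (Slc2a4 and Slc2a5 did not pass the filter of 5 CPM in 4 libraries), with adjusted p between 0.335 and 0.994. The count of genes called over the whole table, 0 in edgeR, was 233 with DESeq2 (219 higher, 14 lower in ST14high), 2 with the replicate block and 0 in every fit with 1 library left out, as with limma's voom. Correlations of same-numbered libraries' deviations ran from -0.125 to 0.052, so no pairing by number was detected; the labels do not say whether equal numbers share a sort or animals. Leaving out 1 library at a time, the log2 fold change of Slc2a1 ran from -0.46 to 0.19 and that of Slc2a2 from -0.017 to 0.096, crossing 0. It ran from -0.60 to -0.30 for Slc5a1, 0.17 to 1.41 for Slc2a4, 0.62 to 1.78 for Slc2a5, -0.37 to -0.11 for Slc2a8 and -0.52 to -0.10 for Slc2a9. Hk2 was -2.07 with voom, -1.65 with the replicate block, -2.52 without ST14high replicates 1 and 2, and -2.40 to 1.89 with 1 library left out; the cause was not tested. The level of Slc5a1 relative to Slc2a2 was 0.987 on deposited RPKM and 2.09 on GENCODE lengths, a change set by the lengths. The GENCODE lengths need not be those over which the authors counted. Depth limits Slc5a11 and Slc5a9: in ST14low replicate 3, 3 counts are 0.463 CPM.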
